A study of Mus musculus with 9 samples.

Results

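The gene set described here holds Lcn2 and 7 genes of cellular iron handling, Slc22a17, Tfrc, Trf, Fth1, Ftl1, Slc40a1 and Slc11a2. The genes were chosen by name, 8 of the 32195 genes in the table, and every one of them was detected. They were followed along the mouse epididymis, in its 3 segments (caput, corpus and cauda), at 2 ages and in 8 cell populations, by single-cell RNA sequencing. The mice were untreated C57BL/6 males (C57BL/6J in the study's methods) with no transgene or allele named in the labels, sampled at 42 days of age (P42) and at 56 days (P56). There were 9 libraries, 1 per segment from a pool of 5 mice at P42 and 2 per segment from 10 mice at P56, named P56 replicate 1 and P56 replicate 2. Each epididymis was divided into the 3 segments, which were digested enzymatically, and red cells were lysed. At P56 the replicate number was taken to name the same set of mice in each segment, which the labels do not state. Tissue of several mice went into a library, and a pool gave its caput, corpus and cauda libraries from 1 set of mice. The tests therefore measure the spread between libraries of 3 pools, not between animals.

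Iron enters most cells when transferrin (Trf), the iron carrier of body fluids, binds the transferrin receptor Tfrc and is taken up, and the divalent metal transporter Slc11a2 then moves the iron out of the endosome. Cells store iron in ferritin, a shell of the heavy chain Fth1 and the light chain Ftl1, and release it through ferroportin, Slc40a1. Lcn2, a secreted lipocalin, binds bacterial siderophores that carry iron, keeps that iron from bacteria and can be taken up through the receptor Slc22a17. When iron is scarce, iron regulatory proteins bind hairpins called iron-responsive elements: those after the coding sequence of Tfrc protect its mRNA, and those before the coding sequence of the ferritins and Slc40a1 hold back translation, which mRNA counts do not show.

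These hairpins are printed because they show the shared control element in the classical form that the search looked for. The search looked on the transcript strand for the loop CAGTGN closed by a stem of 5 pairs (G with T allowed) with an unpaired C before the stem. Capitals mark the loop, and the sequences are those of the GENCODE M21 transcripts on GRCm38. Of the 8 genes, Tfrc had 4 matches in its 3′ UTR, and Fth1, Ftl1 and Slc40a1 had 1 each in the 5′ UTR. No match was found in these windows for the other 4 genes. An element of a less regular shape is known in a transcript form of Slc11a2, and the search was not made to find it. Over all protein-coding genes, 0.148% of 20899 genes with a 5′ UTR and 0.613% of 21028 genes with a 3′ UTR held a match.
Tfrc site 1, chr16:32631219-32631247, plus strand: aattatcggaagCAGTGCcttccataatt
Tfrc site 2, chr16:32631598-32631626, plus strand: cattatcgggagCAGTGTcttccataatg
Tfrc site 3, chr16:32631663-32631691, plus strand: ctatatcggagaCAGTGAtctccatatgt
Tfrc site 4, chr16:32631710-32631738, plus strand: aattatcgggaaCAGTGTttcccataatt
Fth1, chr19:9982732-9982760, plus strand: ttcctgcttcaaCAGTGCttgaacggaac
Ftl1, chr7:45459779-45459807, minus strand: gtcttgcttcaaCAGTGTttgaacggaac
Slc40a1, chr1:45925465-45925493, minus strand: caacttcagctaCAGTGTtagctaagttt

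Levels are given in CPM, the UMIs of a gene scaled so that those of all genes add up to the same fixed total in each sum, the usual depth-scaled unit, summed over the cells of a population in a library. The deposited libraries held 23114756 to 50655384 UMIs, with 4075 to 4893 analysed cells each, 41373 cells in all, and the median UMIs per cell lay between 3101 in the P42 cauda and 7640.5 in the P56 replicate 2 cauda. Cells were sorted into populations by fixed marker genes, which gave 17642 principal, 3696 basal, 4772 clear/narrow, 2438 macrophage/monocyte, 4403 myoid/fibroblast, 849 endothelial, 479 halo/T and 827 sperm cells, 196 ciliated cells, and 6071 cells whose clusters could not be named. The P42 cauda library stood apart: it gave 33 principal and 41 basal cells and 1840 unnamed ones. Its principal cells had a summed level of the principal markers of 25610, against 78760 and 79880 at P56, while the summed level of the myoid/fibroblast markers in them was 31760, against 483 and 440. Whether this library holds the same tissue as the P56 cauda libraries could not be settled from the counts, and every age difference in the cauda rests on it. The cauda sperm are those of this library alone (62 cells), with a summed level of the myoid/fibroblast markers of 34140 beside 24240 for the sperm markers. Of the barcode sequences, 143 occurred in more than 1 library.

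Lcn2 (chr2:32384633-32388252) was highest in the caput. Summed over all cells, its caput level was 6266 CPM at P42 and 6974 and 6501 in the P56 replicates, its corpus level 359, 185 and 155, and its cauda level 107, 414 and 329. Every caput library lay more than an order of magnitude above every corpus and cauda library. In principal cells, the columnar cells that secrete and absorb along the whole duct, the level was 7663, 7143 and 6673 CPM in the caput, 370, 119 and 78.7 in the corpus and 615, 163 and 141 in the cauda, pools in the same order. The caput principal cells exceeded those of the corpus 45.7-fold (log2 difference 5.51, adjusted p = 5.9e-06, edgeR quasi-likelihood F test over the segments with the pool as block). The difference held in every one of 11 alternative analyses, with log2 values from 5.21 to 6.005. At P56 the corpus side of this fold is a level whose share of cells did not exceed that in macrophages, as given below. Over all cells the fitted caput to corpus difference was 25.3-fold (log2 4.66, adjusted p = 0.0020). Without the P56 replicate 1 pool it was 4.45 with an adjusted p of 0.058 by the same test.

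**Figure D1:**
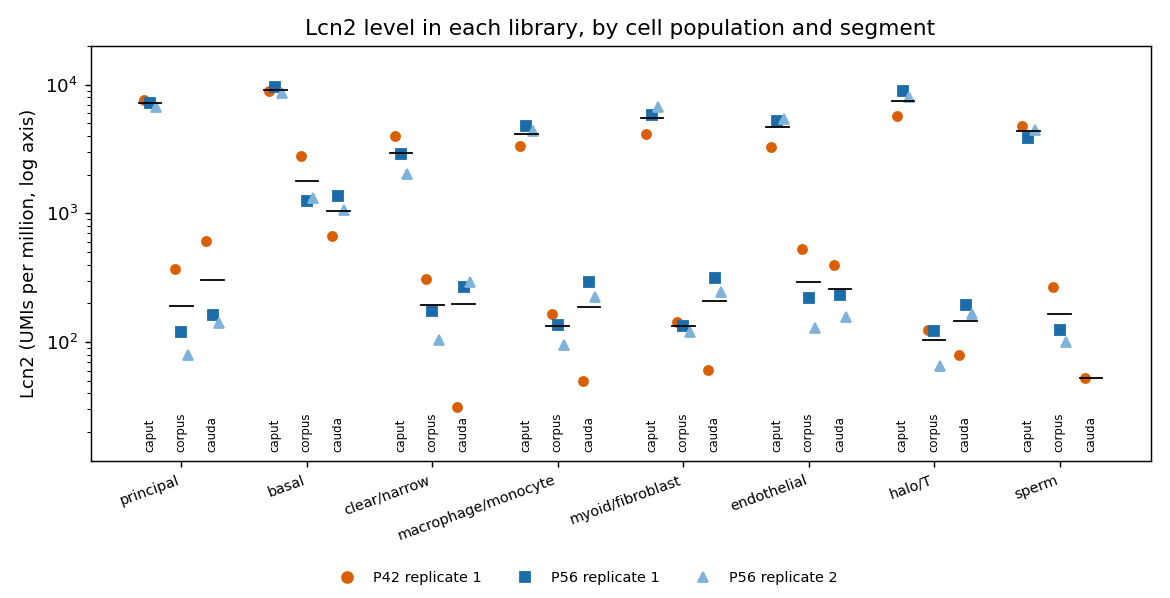
Lcn2 level (CPM, log axis) in each of 8 cell populations, split by segment. Each point is 1 library, coloured by pool, and the line is the mean of the libraries. The caput libraries lie at 2006 or above in every population, and outside the caput only basal cells stay near or above 1000 in the P56 libraries. Cauda sperm are shown by the P42 library alone.

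Outside the caput, Lcn2 was highest in basal cells, the small cells at the base of the epithelium. Their level was 8977, 9614 and 8619 CPM in the caput, 2812, 1247 and 1323 in the corpus and 670, 1375 and 1062 in the cauda, so that the segments did not overlap between caput and the rest but overlapped between corpus and cauda. Caput basal cells exceeded cauda basal cells 6.94-fold (log2 2.80, adjusted p = 0.00011). In 9 of 9 libraries the basal level was above the principal level of the same library, by 1.17 to 1.35 times in the caput, 7.61 to 16.8 times in the corpus, and 1.09 times at P42 and 8.43 and 7.56 times at P56 in the cauda. This comparison of basal and principal cells is a description, with no test of its own. Over the principal markers, the median ratio of the basal to the principal level was 0.254 to 0.703 in these libraries, below the Lcn2 ratio in 9 of 9. The part of free RNA in the basal level was not tested.

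The share of cells with at least 1 Lcn2 UMI showed the same order. In the corpus it was 96.6% (95% Clopper-Pearson interval 92.7 to 98.7), 94.5% (90.7 to 97.1) and 94.6% (91.4 to 96.9) of basal cells, against 61.5% (56.7 to 66.0), 39.4% (37.5 to 41.3) and 32.8% (30.5 to 35.1) of principal cells. The intervals cover counting error only. The median depth of these cells was 3560, 5616 and 4004 UMIs in basal and 3283, 5881 and 6064 UMIs in principal cells. Thinned to 1000 UMIs per cell, the shares were 81.9%, 65.0% and 66.3% in basal and 28.8%, 10.9% and 7.37% in principal cells. Corpus macrophages, at 3612, 3008 and 4885 UMIs, gave 14.1%, 12.1% and 7.67% at the same thinned depth. The share in corpus principal cells at P56 did not exceed that in the macrophages of the same libraries, while at P42 it did (28.8% against 14.1%). Basal cells were above the macrophages in all 3 libraries. Whether the share in corpus principal cells at P56 is expression was not tested. How far the macrophages measure free RNA was not tested. The order of the P56 corpus was found in the P56 cauda too. There the thinned share was 14.3% and 12.6% in principal cells, 23.5% and 19.1% in macrophages and 67.7% and 59.4% in basal cells. In the caput even macrophages reached 89.1%, 95.1% and 88.9%, near the 97.6%, 96.6% and 91.9% of principal cells, so that shares of cells do not separate the populations there.

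In the caput, Lcn2 was found in all populations. The mean of the 3 libraries was 7507 CPM in halo/T cells, 5538 in myoid/fibroblast cells, 4653 in endothelial cells, 4335 in sperm, 4164 in macrophages and 2959 in clear/narrow cells. The caput to corpus or cauda difference was called in each of them by the edgeR test, from 13.3-fold in clear/narrow cells (adjusted p = 0.0038; 0.11 without P56 replicate 1) to 70.5-fold in halo/T cells (7.1e-07). For sperm no fold is given, since the cauda is the P42 library alone, with 9 Lcn2 UMIs. In caput halo/T cells the ratio of Lcn2 to its principal level was 0.743, 1.24 and 1.19 in the 3 libraries, beside a median ratio of the principal markers of 0.686, 0.906 and 0.881. The part of free RNA in the levels of these populations was not tested. Of 8 markers of neutrophils, a cell type known for storing Lcn2, the summed level over all cells lay between 0.889 and 21.5 CPM in caput, between 3.99 and 21.4 in corpus and between 77.3 and 124 in cauda libraries. S100a8, singled out after its values were seen, gave 9632 UMIs of this list, 4746 of them in principal cells, and the next, S100a9, gave 647. The part of neutrophils in the Lcn2 level was not tested.

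Ordered by the mean over libraries, Lcn2 was highest in basal cells (3967 ± 3879 CPM, SD, n = 9), then halo/T (2586 ± 3781), principal (2552 ± 3469), myoid/fibroblast (1960 ± 2758), sperm (1935 ± 2261, n = 7), endothelial (1735 ± 2270), macrophage/monocyte (1495 ± 2039) and clear/narrow cells (1117 ± 1470). The large SDs are the segments: each mean joins caput libraries with corpus and cauda libraries. Basal cells were above halo/T cells in 9 of 9 libraries (p = 0.0039, exact two-sided sign-flip permutation test, the smallest p that 9 libraries allow; adjusted p = 0.073 over the 56 neighbour pairs of the 8 genes). No pair further down passed the test (adjusted p = 0.34 and above), and over all 8 genes 0 of 56 pairs passed after adjustment, with 8 at an unadjusted p under 0.05. A pair at the smallest p could not pass over 56 pairs unless several others reached it too, and only 3 pairs were higher in every library. A pair that did not pass, here and below, is therefore no sign that the populations are alike. These permutation tests, here and below, flip the libraries as if they were independent, though libraries of a pool share mice.

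**Figure D2:**
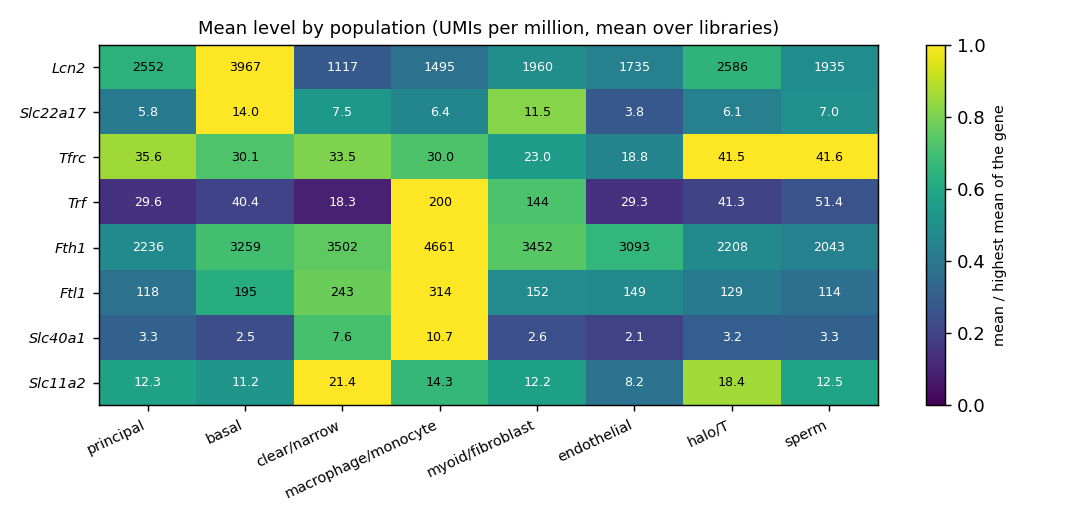
Mean level of each gene (CPM, printed in the cells) in 8 cell populations, over 9 libraries (7 for sperm). The colour gives the mean divided by the highest mean of that gene. Macrophages hold the highest mean of Trf, Fth1, Ftl1 and Slc40a1, basal cells that of Lcn2 and Slc22a17 and clear/narrow cells that of Slc11a2. Colours compare populations within a gene, not genes with each other.

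Across all 8 genes, 6 were called between segments in principal cells, against 37.3% of the 16236 genes tested there. A call needed an adjusted p under 0.05 and a log2 difference of at least 1 between the highest and the lowest segment. Lcn2, Slc22a17 and Trf were highest in the caput, Tfrc, Slc40a1 and Slc11a2 in the corpus, and the ferritin genes were not called. The fitted log2 differences of the ferritin genes were 0.22 (Fth1) and 0.76 (Ftl1).

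**Figure D3:**
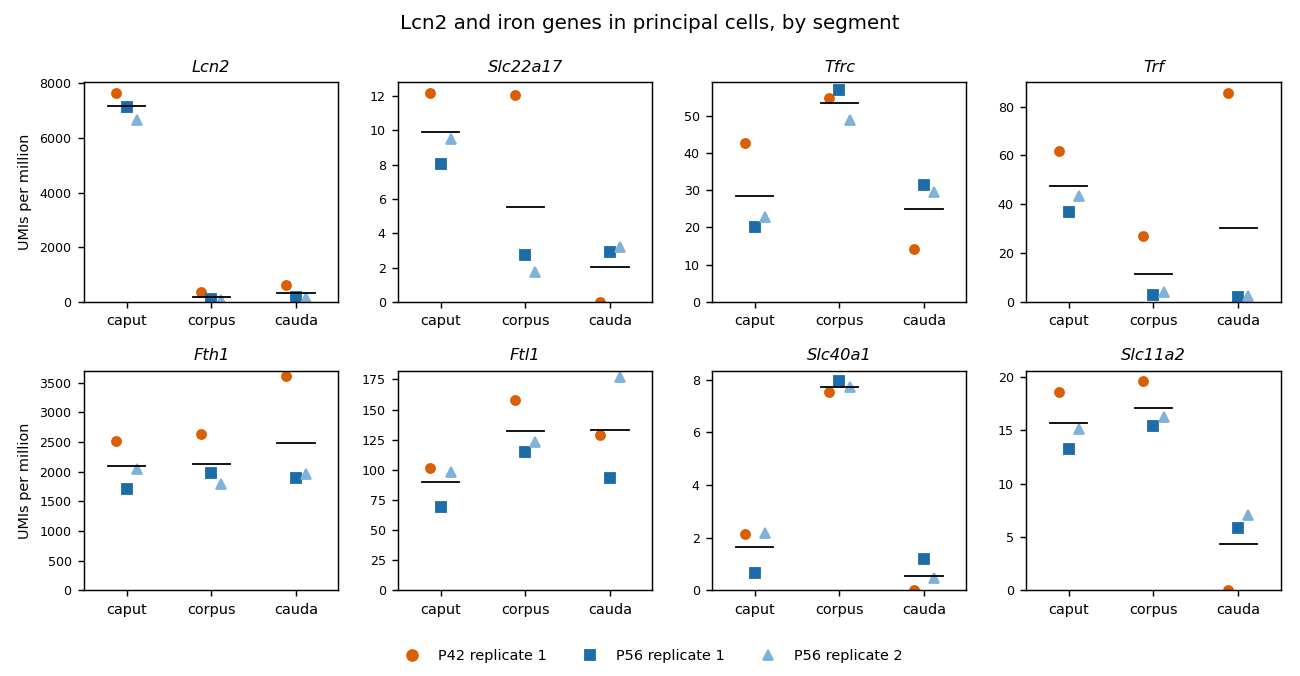
Level of each of the 8 genes (CPM, linear axes from 0) in principal cells of the caput, corpus and cauda. Points are libraries, coloured by pool, and lines are means. Lcn2 stands at 6673 to 7663 in the caput and below 700 elsewhere, Slc40a1 at 7.53 to 7.93 in the corpus and below 2.5 elsewhere, and the P42 cauda point rests on 33 cells.

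Slc22a17 (chr14:54906304-54913132), a receptor for Lcn2, was a low gene with 1998 UMIs in all. In principal cells it was at 12.2, 8.03 and 9.49 CPM in the caput, 12.1, 2.74 and 1.76 in the corpus, and 2.91 and 3.21 in the P56 cauda, with 0 UMIs in the 33 P42 cauda cells. At P56 the caput lay above both other segments, while the P42 corpus was as high as the caput. The caput to corpus difference was 2.46-fold (log2 1.30, adjusted p = 0.014), and it lost its call without either P56 pool (adjusted p = 0.30 without replicate 1 and 0.21 without replicate 2). Its highest mean over the 8 populations was in basal cells (14.03 ± 8.25, SD, n = 9), followed by myoid/fibroblast cells (11.5 ± 5.9), above principal cells (5.8 ± 4.6). The ciliated cells, 111, 23 and 62 of them and all in the caput libraries, were outside these populations and held 34.7, 45.9 and 71.5 CPM, from 23, 7 and 31 UMIs. Basal cells of the same libraries held 25.04, 14.5 and 15.5, below the ciliated cells each time, a description with no test.

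Tfrc (chr16:32608920-32632794), the transferrin receptor, was highest in the corpus. Principal cells held 42.6, 20.02 and 22.9 CPM in the caput, 54.7, 56.8 and 48.7 in the corpus and 14.3, 31.3 and 29.5 in the cauda, the first of them from 1 UMI. The corpus libraries did not overlap with the other segments, and the corpus to caput difference was 2.07-fold (log2 1.05, adjusted p = 0.028). The call sat close to the fold limit and was lost in 5 of 11 alternatives, among them both that left out a P56 pool (adjusted p = 0.50 without replicate 1 and 0.24 without replicate 2). The population means of Tfrc ran from 18.8 ± 7.0 in endothelial cells to 41.5 ± 13.1 in halo/T cells and 41.6 ± 14.8 in sperm (SD; n = 9, 9 and 7).

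Slc11a2 (chr15:100387898-100425072), which moves divalent iron across membranes, had its highest mean in clear/narrow cells (21.4 ± 8.3 CPM, SD, n = 9), the acid-secreting cells of the duct, then halo/T cells (18.4 ± 9.3) and macrophages (14.3 ± 5.8). Neither pair of neighbours passed the test (adjusted p = 0.62 and 0.81, exact permutation test). In principal cells it was at 18.6, 13.3 and 15.1 in the caput, 19.6, 15.4 and 16.2 in the corpus, and 5.87 and 7.03 in the P56 cauda, with 0 UMIs in the P42 cauda cells. Caput and corpus overlapped and the cauda was lower. The corpus to cauda difference was 2.09-fold (log2 1.06, adjusted p = 0.0073), and it was not called without either P56 pool (adjusted p = 0.39 and 0.19).

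Slc40a1 (chr1:45908068-45926523), the iron exporter, separated the corpus from the other segments in principal cells. Its level there was 7.53, 7.93 and 7.72 CPM, against 2.12, 0.666 and 2.19 in the caput and 1.17 and 0.451 in the P56 cauda, with 0 UMIs in the P42 cauda cells. The 3 corpus libraries were nearly alike and did not overlap with any other. The corpus to cauda difference was 7.74-fold (log2 2.95, adjusted p = 0.00047), held in 11 of 11 alternatives with log2 values from 2.18 to 3.99. The gene was rare, with 1013 UMIs in 929 cells. In basal cells the corpus mean was the highest too, at 5.37 against 1.76 in the caput and 0.42 in the cauda, from 18, 15 and 8 UMIs. That difference was not called (corpus over cauda, log2 2.75, adjusted p = 0.057, edgeR). At a finer clustering (adjusted p = 0.035) and with no filter on low counts (0.018) it was. The corpus mean was also the highest in myoid/fibroblast cells, at 4.09 against 2.12 in the caput and 1.62 in the cauda (not called). It was so in endothelial cells (4.37 against 1.10 and 0.70) and halo/T cells (9.58 against 0 and 0). In sperm it was 7.07 against 0.65 and, in the P42 cauda library alone, 0. The last 3 populations rest on few UMIs and were not tested. A corpus peak was thus not particular to epithelial cells. The part of free RNA in these levels was not tested. In clear/narrow cells the order was another one: 13.6, 10.2 and 15.3 in the caput, 9.06, 6.33 and 5.65 in the corpus and 4.48, 1.39 and 1.97 in the cauda, 4.84-fold from caput to cauda (log2 2.27, adjusted p = 0.0031; 0.095 and 0.10 without P56 replicate 1 and replicate 2).

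Macrophages, which recycle iron and are known for ferroportin, had the highest mean of Slc40a1 (10.7 ± 8.9, SD, n = 9), followed by clear/narrow cells (7.55), a pair that did not pass the test (adjusted p = 0.99, exact permutation test, macrophages higher in 6 of 9 libraries). In the caput clear/narrow cells were higher, at a mean of 13.03 against 5.53. The level was 2.94, 13.7 and 0 CPM in caput macrophages, 17.2, 20.4 and 12.2 in the corpus and 24.3, 3.42 and 1.90 in the cauda. Caput and cauda libraries spread widely within a segment, and the segments did not pass the test (adjusted p = 0.40). Without the P42 pool the segments passed (adjusted p = 0.020, edgeR F test over all 3), with the corpus over the caput by 1.28 on the log2 scale. That p-value belongs to the 3 segments together and not to this pair. At P56 the cauda, at 3.42 and 1.90, lay below both corpus libraries, and the caput, at 13.7 and 0, spread around it. The macrophage counts are small, from 0 to 36 UMIs in 8 of the libraries and 114 in the P42 cauda.

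Trf (chr9:103204001-103230444), transferrin, followed cell type and segment together. In principal cells its level was 61.9, 36.8 and 43.5 CPM in the caput, 27.1, 2.86 and 4.13 in the corpus and 85.8, 1.96 and 2.46 in the cauda. The P56 caput lay well above the P56 corpus and cauda, and the P42 cauda value, the highest of all, rests on 6 UMIs. The fitted caput to cauda difference was 10.3-fold (log2 3.36, adjusted p = 0.00010), and it was called in 11 of 11 alternatives.

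In macrophages and myoid/fibroblast cells the Trf pattern was different. Macrophages held 195, 164 and 188 CPM in the caput, 376, 213 and 94.6 in the corpus and 497, 48.8 and 26.9 in the cauda, and myoid/fibroblast cells 43.7, 42.0 and 33.0, then 453, 347 and 100, then 198, 54.2 and 22.7. In the myoid/fibroblast cells the corpus was the highest segment, 6.66-fold above the caput (log2 2.74, adjusted p = 0.0045; 0.14 without P56 replicate 1, and 0.052 without the pool as block). Macrophages had the highest mean (200 ± 152, SD, n = 9) and myoid/fibroblast cells the next (144 ± 157). The pair did not pass the test (adjusted p = 0.41, exact permutation test). Mean Trf in caput, corpus and cauda was 59.9, 12.1 and 51.9 CPM in halo/T and 28.9, 27.4 and 31.6 in endothelial cells. In halo/T cells the caput lay over the corpus by 2.73 (log2), not called (adjusted p = 0.11, edgeR). It was called without the P42 pool (3.02, adjusted p = 0.011) and with no filter on low counts (2.59, adjusted p = 0.0034). In macrophages the segments were called without the P42 pool (corpus over cauda, log2 1.76, adjusted p = 1.6e-05) and not with it (0.81, adjusted p = 0.69). Over all cells Trf was not called between segments (caput over cauda, log2 0.63, adjusted p = 0.76) and was called without the P42 pool (1.84, adjusted p = 3.2e-05). A sum over all cells joins the share of each cell type with the level within it. In the cauda, macrophages were 19.3% of the cells at P42 and 3.38% and 6.40% at P56. The part of such shares in the sum over all cells was not tested.

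Fth1 (chr19:9980598-9985098), the ferritin heavy chain, was found in 41110 of the 41373 cells and had the smallest fitted difference between segments of the 8 in principal cells. Its level in principal cells was 2522, 1712 and 2040 CPM in the caput, 2630, 1981 and 1789 in the corpus and 3603, 1890 and 1961 in the cauda. All 3 segments overlapped, with the P42 library the highest in each. The segments were not called for Fth1 in any population, though in sperm, whose cauda is the P42 library alone, the difference was just under the limit (log2 0.98) and was called in cells with at least 1000 genes and without P56 replicate 2. Between populations the order was macrophage/monocyte (4661 ± 1531, SD, n = 9), clear/narrow (3502 ± 436), myoid/fibroblast (3452 ± 785), basal (3259 ± 546), endothelial (3093 ± 978), principal (2236 ± 600), halo/T (2208 ± 411) and sperm (2043 ± 671, n = 7). Endothelial cells were above principal cells in 9 of 9 libraries (p = 0.0039, adjusted p = 0.073, exact permutation test).

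Ftl1 (chr7:45457944-45459884), the ferritin light chain, was lowest in the caput when summed over all cells. Over all cells its level was 114, 73.7 and 107 CPM in the caput, 182, 142 and 144 in the corpus and 335, 126 and 222 in the cauda. Caput libraries lay below all others, and corpus and cauda overlapped. The cauda to caput difference was 2.61-fold (log2 1.38, adjusted p = 0.0065; 0.081 and 0.11 without P56 replicate 1 and replicate 2). It was also called in basal (2.34-fold), clear/narrow (2.44-fold), myoid/fibroblast (2.61-fold) and endothelial cells (2.80-fold), and in sperm, where the cauda is the P42 library alone and no fold is given. Without P56 replicate 1 the call was lost in basal (adjusted p = 0.077), clear/narrow (0.066), myoid/fibroblast (0.11) and endothelial cells (0.15), and without P56 replicate 2 in the last pair (0.16 and 0.11). In principal cells it was not called (log2 0.76, adjusted p = 0.096), except when the P42 pool was left out (1.01, adjusted p = 0.00075). Macrophages had its highest mean (314 ± 144, SD, n = 9), then clear/narrow (243 ± 94) and basal cells (195 ± 82).

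Ftl1 counts are uncertain. The table also lists the processed pseudogene Ftl1-ps1, with 145059 UMIs against 40002 for Ftl1, and the rows Ftl2-ps (198 UMIs), Ftmt (116), Fthl17a (62), Ftl1-ps2 (56), Fth-ps2 (7), Fth-ps3 (6) and Fthl17f (4). A near-identical copy can take reads of the gene it copies, and the split between Ftl1 and Ftl1-ps1 was not resolved here. Over all cells Ftl1-ps1 was at 549, 564 and 476 CPM in the caput, 688, 633 and 468 in the corpus and 1382, 399 and 318 in the cauda, and its segments were not called (log2 0.38, adjusted p = 0.64). At P56 both caput libraries lay above both cauda ones, the reverse of the Ftl1 row. The order of the segments given for Ftl1 holds for its own row only. Of the 9 sets of cells Ftl1-ps1 was called in sperm alone, a call that rests on the P42 cauda library.

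Over all cells, 5 of the 8 genes were called between segments, against 24.6% of the 19603 genes tested: Lcn2 and Slc22a17 highest in the caput, Tfrc and Slc40a1 in the corpus and Ftl1 in the cauda. Only Lcn2 remained called when P56 replicate 2 was left out, and 0 of 8 were called without P56 replicate 1. With scaling by library totals alone Tfrc (log2 0.97) and Slc40a1 (adjusted p = 0.077) lost their call and Slc11a2 gained one, in cells with at least 1000 genes Slc40a1 lost it (adjusted p = 0.052), and in epithelial and unnamed cells only, chosen after seeing the data, Trf gained one (log2 1.91, adjusted p = 0.033). In basal cells 3 were called (Lcn2, Tfrc and Ftl1, against 16.3% of genes), where Tfrc lost its call without P56 replicate 1 and replicate 2 (adjusted p = 0.71 and 0.38). In clear/narrow cells 4 were called (Lcn2, Trf, Ftl1 and Slc40a1, against 13.1%), where Trf did likewise (0.32 and 0.33). In macrophages 1 was called (Lcn2, against 7.34%), with Ftl1 gained at the finer clustering (corpus over caput, log2 1.37, adjusted p = 0.020), with no filter (1.07, adjusted p = 0.041) and without the P42 pool (1.01, adjusted p = 0.027), where the count was 4 with Trf and Slc40a1, and in myoid/fibroblast cells 3 (Lcn2, Trf and Ftl1, against 10.7%). In the smaller populations 5 of the 8 genes had enough UMIs to be tested. Of these, 2 were called in endothelial cells (Lcn2 and Ftl1, against 9.0%), 1 in halo/T cells (Lcn2, against 16.0%) and 2 in sperm (Lcn2 and Ftl1, against 23.5%), where the cauda is the P42 library alone. Lcn2 was called in the other 8 sets of cells as well. These counts moved by over 1.5 times in some alternatives: in basal cells to 1 with scaling by library totals alone and without P56 replicate 1, in clear/narrow cells to 0 and 2 without P56 replicate 1 and replicate 2, in endothelial cells to 1 without either of them and without the block, in myoid/fibroblast cells to 1 without P56 replicate 1 and 5 without the P42 pool, in halo/T cells to 2 with no filter and 3 without the P42 pool, and in sperm to 4 without P56 replicate 2.

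The 2 ages were compared within each segment, with 1 P42 library against 2 P56 libraries, so that the P42 library was assumed to vary like the P56 ones. In the caput none of the 8 genes was called at P56 against P42 in all cells, principal, basal or macrophage sets by edgeR, against 3.51%, 1.17%, 2.05% and 0.458% of all genes. At an unadjusted p under 0.05 there was 1 gene in all cells and 1 in principal cells, Tfrc both times (log2 -0.38 and -0.70, lower at P56), and DESeq2 also called none. Lcn2 in caput principal cells differed by 0.15 ± 0.26 (log2, SE; adjusted p = 0.82). On simulated data, with genes changed in the P56 cauda alone, the age fit in principal cells found few of them. An uncalled age difference in cauda principal cells therefore says little. Caput and corpus changes were not simulated.

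In the corpus, principal cells carried 3 called genes, all lower at P56, against 6.85% of genes. The P42 corpus gave 441 principal cells, 10.3% of its cells, against 55.5% and 36.9% at P56, and 1635 of its cells were unnamed. The part of this in the age differences was not tested. Trf fell by 2.34 ± 0.27 on the log2 scale (SE; adjusted p = 0.0019), Slc22a17 by 1.74 ± 0.36 (adjusted p = 0.017) and Lcn2 by 1.26 ± 0.26 (adjusted p = 0.017). For Lcn2 the P56 side of this difference is the level whose share of cells did not exceed that in macrophages. Both P56 libraries were below the P42 library for each of them, as in the levels given above. Over all corpus cells 1 gene was called, Trf (log2 -2.18 ± 0.29, adjusted p = 0.0040, against 10.6% of genes). Scaled by library totals alone, Lcn2 (-1.08, adjusted p = 0.0068) and Slc22a17 (log2 -1.525, adjusted p = 0.0054) were called there as well. In basal cells and macrophages 0 of 8 were called (against 4.76% and 6.91%), where Lcn2, Slc22a17 and Tfrc in basal cells and Tfrc and Trf in macrophages had an unadjusted p under 0.05. Scaled by library totals alone, Lcn2 (log2 -1.13, adjusted p = 0.0029) and Slc22a17 (-2.04, adjusted p = 0.0032) were called in basal cells and Trf (-1.31, adjusted p = 0.023) in macrophages. Slc22a17 was called in basal cells also at the finer clustering (adjusted p = 0.032) and Trf in macrophages with at least 1000 genes (adjusted p = 0.030). Over all corpus cells the summed level of the myoid/fibroblast markers was 8735 CPM at P42 and 878 and 722 at P56, and that of the macrophage markers 3921, then 721 and 604, with macrophages at 11.9% of the cells, then 4.01% and 3.82%. In the corpus principal cells the summed level of the myoid/fibroblast markers was 2327 CPM at P42 and 230 and 195 at P56, and that of the macrophage markers 1136, then 223 and 215. Myoid/fibroblast cells and macrophages are the populations with the highest mean Trf, and the part of these sums in the result was not tested.

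**Figure D4:**
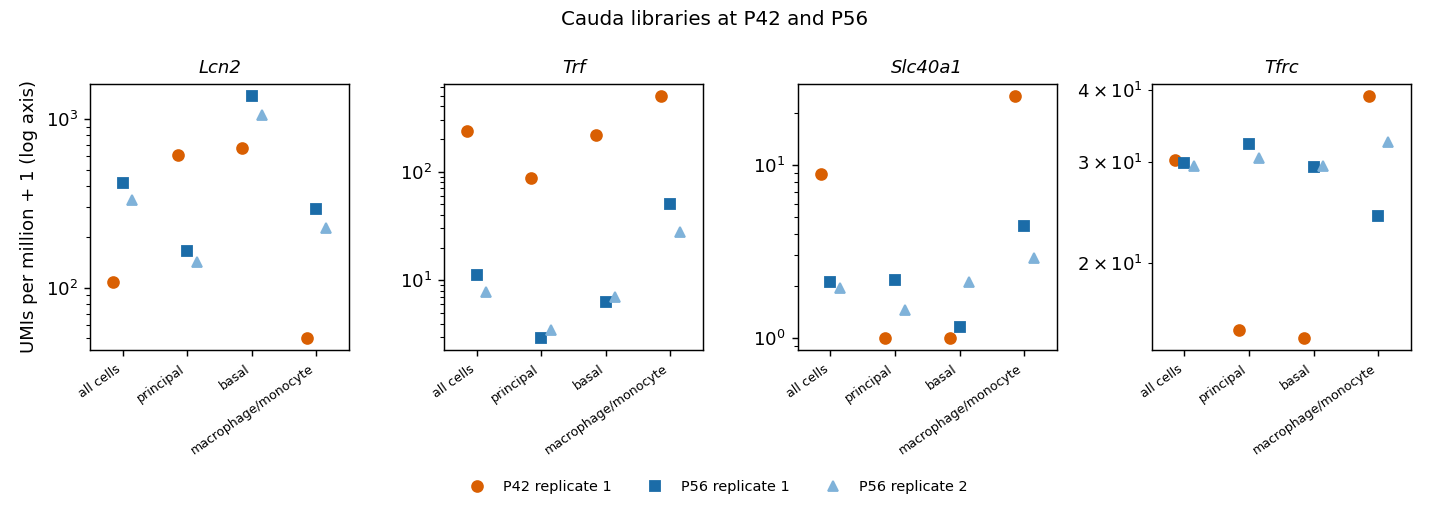
Levels of Lcn2, Trf, Slc40a1 and Tfrc in the cauda (CPM plus 1, log axes that differ between panels) in all cells, principal, basal and macrophage/monocyte cells. Points are the P42 library and the 2 P56 libraries. Trf at P42 lies above both P56 libraries in all 4 sets, and Lcn2 at P42 lies below them in all sets except principal cells.

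In the cauda Trf was at 237 CPM over all cells at P42 and at 10.1 and 6.82 at P56. In principal cells it was at 85.8 against 1.96 and 2.46, in basal cells at 214 against 5.30 and 5.99, and in macrophages at 497 against 48.8 and 26.9. The P42 library was above both others each time. The fitted log2 differences were -4.05 ± 0.30 (all cells, adjusted p = 5.2e-05), -3.87 ± 0.71 (principal, 0.0073), -4.34 ± 0.43 (basal, 1.4e-06) and -3.12 ± 0.35 (macrophages, 1.7e-13), each with its SE from the fit of the 9 libraries.

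Lcn2 moved the other way in the cauda in 3 of these 4 sets. It was at 107 CPM over all cells at P42 against 414 and 329 at P56, at 670 against 1375 and 1062 in basal cells and at 49.4 against 291 and 224 in macrophages. P42 was below both P56 libraries in these sets. In macrophages, against which the Lcn2 shares were read above, the summed level of the principal markers was higher at P56 too. It was 6216 CPM at P42 against 56300 and 67840, and its part in the macrophage difference was not tested. The fitted log2 differences were 2.55 ± 0.26 (all cells, adjusted p = 0.00019), 1.76 ± 0.31 (basal, 0.00080) and 3.01 ± 0.42 (macrophages, 9.4e-10). The basal call was lost at a finer clustering (log2 0.54, adjusted p = 0.18) and with scaling by library totals alone (0.86, adjusted p = 0.076). In principal cells, with 33 cells at P42, Lcn2 was at 615 against 163 and 141 and was not called (log2 -0.61 ± 0.33, adjusted p = 0.39). Scaled by totals alone it was lower at P56 and called (log2 -2.02, adjusted p = 0.0023).

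Slc40a1 fell in the cauda from 7.90 CPM at P42 to 1.12 and 0.936 over all cells (log2 -2.18 ± 0.33, adjusted p = 0.0011) and from 24.3 to 3.42 and 1.90 in macrophages (log2 -2.66 ± 0.58, adjusted p = 7.5e-05; 0.059 by DESeq2). Slc22a17 was called over all cells (14.9 against 4.22 and 4.28; log2 -1.04 ± 0.22, adjusted p = 0.0053), just past the limit of 1. DESeq2 put it at -0.98. In all, 4 of 8 genes were called over all cauda cells, beside 32.2% of all genes, and 3 of 8 in macrophages, beside 37.2%, a share like that of genes in general. Scaled by library totals alone, Slc22a17 (log2 -2.03, adjusted p = 0.013) and Ftl1 (log2 -1.45, adjusted p = 0.00049) were called in macrophages too, which made 5. In principal cells 1 was called (against 9.16%) and in basal cells 2 (against 9.45%). The genes with 0 UMIs in the P42 principal cells (Slc22a17, Slc40a1 and Slc11a2) or basal cells (Slc40a1) get no fold.

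**Figure D5:**
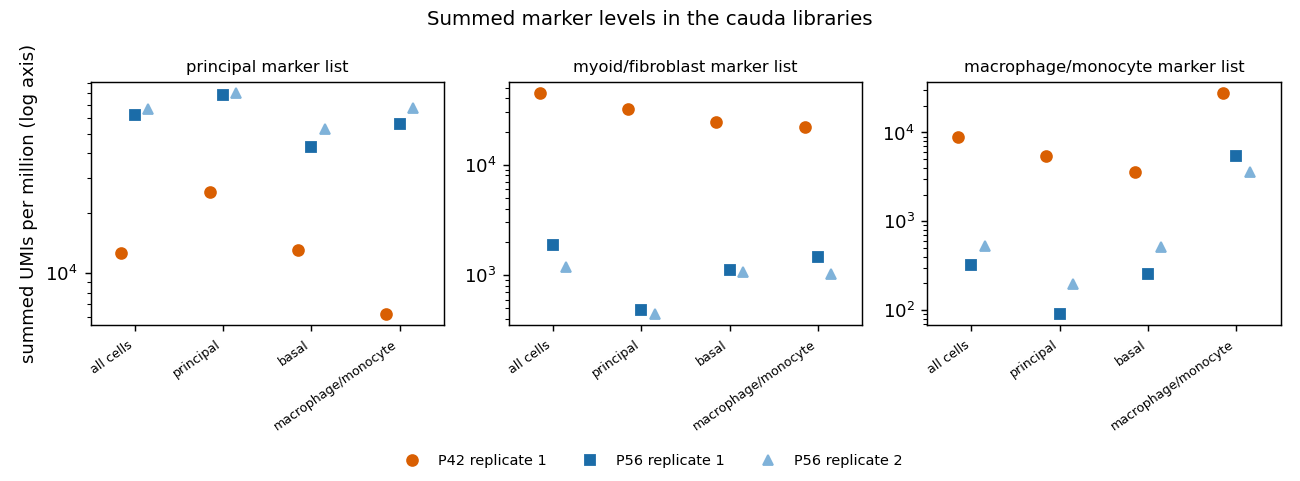
Summed levels of 3 marker lists (CPM, log axes) in 4 sets of cauda cells. Points are the P42 library and the 2 P56 libraries. In all 4 sets the P42 library is lower in principal markers and higher in myoid/fibroblast and macrophage markers than both P56 libraries.

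The makeup of the cauda libraries moved with age too. Over all cells, the summed level of 24 principal markers was 12680 CPM at P42 against 62370 and 67060, of 12 myoid/fibroblast markers 44370 against 1880 and 1181, and of 14 macrophage markers 8873 against 319 and 531. The same held within populations: in basal cells the myoid/fibroblast sum was 24430 against 1106 and 1071, and in macrophages the principal sum was 6216 against 56300 and 67840 while their own markers were at 27580 against 5399 and 3573. The part of these sums in the age differences was not tested, and the P42 pool and the P42 age cannot be told apart. Summed over epithelial and unnamed cells only, an analysis chosen after seeing the data, the log2 differences in the cauda were -4.01 for Trf (adjusted p = 2.9e-06) and 1.68 for Lcn2 (0.0014), both called, and -0.58 for Slc40a1 (0.45) and -0.52 for Slc22a17 (0.15), neither called. Scaling by library totals alone moved the median of all genes by -0.76 in the cauda, -0.65 in the corpus and -0.37 in the caput (all cells, log2), and the share of called genes that were higher at P56 in the cauda from 40.0% to 11.01%. Trf stayed lower and Lcn2 over all cauda cells stayed higher (log2 -4.81 and 1.79), while Tfrc over all cauda cells went from 0.73 to -0.03, uncalled in both.

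Whether the age difference itself differed between the segments was tested directly. Over all cells it did for 4 genes (against 14.4% of genes), Lcn2 and Trf (adjusted p = 0.0058 for both), Tfrc (0.016) and Slc40a1 (0.022). In basal cells it did for Lcn2 and Trf (2 genes, against 3.23%), in macrophages for Lcn2, Trf and Slc40a1 (3 genes, against 8.4%) and in principal cells for Tfrc and Trf (2 genes, against 6.93%). The age difference of Trf in the cauda was lower than in the caput by 3.96 over all cells, 4.55 in basal cells, 3.13 in macrophages and 3.54 in principal cells (log2), and that of Lcn2 was 2.06, 1.44 and 2.38 higher in the first 3 sets. At the finer clustering the basal value of Lcn2 was 0.19 (adjusted p = 0.11). These fits had no block. With the pool as block, a fit added after seeing the data that leaves 2 residual degrees of freedom, Lcn2 was called in principal cells too (cauda minus caput -0.77 and corpus minus caput -1.43 on the log2 scale, adjusted p = 0.016; 0.11 without the block). Without the block it was called by DESeq2 (adjusted p = 0.039), with scaling by library totals alone (0.022) and with no filter on low counts (3.1e-05) as well. For Tfrc in principal cells the cauda side rests on 1 UMI at P42. The counts became 2 over all cells in epithelial and unnamed cells only, 1 in basal cells at the finer clustering and 4 in principal cells with no filter.

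Other genes of iron handling were read from a list of 55. In principal cells 45 could be tested between segments and 18 were called (beside 37.3% of all genes), with 8 peaking in caput cells, 3 in corpus cells and 7 in cauda cells. The median log2 distance from lowest to highest segment was 0.89 in the list and 0.91 over all genes. The 8 largest included Ltf, which binds iron in secretions (cauda over caput, log2 9.86), the metal transporter Slc39a8 (corpus over cauda, 5.425), the endocytic receptor Lrp2 (cauda over caput, 5.42) and the porphyrin exporter Abcg2 (caput over cauda, 3.68). The other 4 are given by their UMIs in caput, corpus and cauda principal cells, since a segment was at or near 0. Steap1 and Steap2 of the ferrireductase family had 152, 5 and 0 and 88, 17 and 3 UMIs, the hepcidin Hamp2 had 42, 0 and 0, and the ferroxidase Hephl1 had 2, 3 and 47. By role, 5 of 8 tested uptake genes, 3 of 4 export genes and 6 of 12 heme genes were called, as were 0 of 3 storage genes, 1 of 5 sensing genes, 2 of 8 genes of mitochondrial iron and 1 of 5 siderophore and luminal binding genes, beside the same 37.3% of all genes. The roles were not tested against each other. Ltf and Lrp2 were called between segments in every other population as well, Ltf with log2 values from 6.02 in macrophages to 10.13 in clear/narrow cells. Their differences are thus not particular to principal cells, and the part of free RNA in them was not tested.

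In the cauda at P56 against P42, 9 of 46 list genes tested in principal cells were called, 5 higher and 4 lower, beside 9.16% of all genes. The 8 largest were the ferrireductase Steap3 (log2 -6.63), Bmp2 (-4.23), the heme-hemopexin receptor Lrp1 (-4.12), Lrp2 (3.62), Ltf (2.84), the heme oxygenase Hmox1 (-2.47), the ferroxidase ceruloplasmin Cp (1.91) and Glrx5 of iron-sulphur cluster assembly (1.56). Over all cauda cells 20 of 53 were called, 6 higher and 14 lower, beside 32.2% of all genes. In principal cells the P42 side of the 8 named genes rests on 5 to 18 UMIs each, and the makeup of the P42 cauda given above moves with these differences as well. With scaling by library totals alone, the share of called genes higher at P56 in these cells went from 72.9% to 10.4%. The size and direction of the smaller list differences, such as those of Cp and Glrx5, may depend on the scaling. Their values with scaling by library totals alone were not read out.

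The genes with the pattern most like 7 of the members were found by Pearson's r of log2(CPM + 10) over 70 sums of a library and population, among 16984 genes. The sums share libraries and depth, so that r is a description. For Lcn2 they were Plek2 (0.93), Mfge8 (0.91) and the epididymal lipocalin Lcn6 (0.90). For Trf they were Qpct (0.84), the lipoprotein lipase Lpl (0.84) and Rab7b (0.84), and for Fth1 the lysosomal gene Psap (0.88), Lgals3bp (0.83) and Gpx1 (0.82). Ftl1 was most like Gapdh (0.76), Zfand5 (0.75) and Hspa8 (0.70) and Slc11a2 like Mthfsl (0.71), Ppm1h (0.70) and Rbm47 (0.65). Slc22a17 was most like Cbx6 (0.72), Zfp383 (0.69) and Col16a1 (0.69), and Tfrc like Mrpl54 (0.67), Mkrn1 (0.64) and D11Wsu47e (0.63). Among the 8 genes themselves the closest pair was Fth1 and Ftl1 (0.65), and the most opposed was Lcn2 and Ftl1 (-0.55). The names depend on the pseudocount: with 1 in place of 10, 10 of these 21 genes stayed among the 3 most like, Mfge8 alone for Lcn2.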

How the data were processed

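Raw UMI counts per gene and cell barcode, as deposited, were analysed. The authors trimmed reads with fastp, took barcodes and UMIs with UMI-tools, aligned with STAR 2.7.3a to GRCm38.p6 and counted exons of GENCODE annotation, per the labels and the study's methods. All rows name a gene. Barcodes with 300 to 4000 genes, at most 20000 UMIs and at most 50% mitochondrial UMIs were kept (42087), and 714 globin-rich ones were left out. Cells were clustered in scanpy 1.11.5 (3000 variable genes centred within each library, 50 components, Leiden, resolution 1) without the 8 genes and the iron gene list; a cluster was named from at least 3 fixed markers at 2 times the other cells. Scrublet called 0 doublets, so none were removed and the highest 5% of scores were left out as an alternative. A cluster mostly of 1 library may be that library, not a type.

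UMIs were summed per library and population (at least 10 cells) and tested with edgeR 4.0.16 (quasi-likelihood, TMM, filterByExpr, Benjamini-Hochberg over all genes tested), segments with the pool as block, ages and their comparison between segments without. Calls needed an adjusted p under 0.05 and, except between age differences, a log2 difference of at least 1. The pool numbers pair segments because a replicate number was taken to mark the same mice, which the P56 labels do not state. Deviations of same-pool libraries correlated at 0.291 to 0.789 (all cells) and 0.0384 to 0.473 (principal). Those of other pools of the same age correlated at 0.24 to 0.689 and 0.0031 to 0.374. The ranges overlap, so the values follow age as well and do not settle the pairing within P56. Depth was 23114756 to 50655384 UMIs per library. The fits were tested on simulated data with genes changed in the cauda only. In principal cells the age fit and the blocked comparison of age differences found few of them. The segment fit in principal cells, and those other fits over all cells, missed most genes with the smaller change and found most with the larger. An uncalled difference in these fits therefore does not show that a gene is unchanged. Named were the 8 genes, ferritin copies, the 3 most like genes and the 8 largest called iron-list genes in 2 comparisons. The genes most like Slc40a1 are not reported here. Members and lists were chosen with earlier results of these data known. Alternatives were DESeq2 1.42.0, TMM factors of 1, no filter, other cell limits and clustering, no block, and each pool left out. GENCODE M21 gave coordinates and UTRs.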

Additional observations from a re-analysis of the deposited data

Results flagged for a closer look

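In 11 cases the age difference of a gene (P56 against P42) differed between the 3 segments by a test of that difference itself (edgeR quasi-likelihood F test, Benjamini-Hochberg over all genes). Over all cells these were Lcn2 (adjusted p = 0.00577), Trf (adjusted p = 0.00577), Tfrc (adjusted p = 0.0163) and Slc40a1 (adjusted p = 0.0217). In basal cells they were Lcn2 (adjusted p = 0.00594) and Trf (adjusted p = 7.23e-05). In macrophages they were Trf (adjusted p = 9.24e-06), Lcn2 (adjusted p = 9.48e-06) and Slc40a1 (adjusted p = 0.0124). In principal cells they were Trf (adjusted p = 0.00856) and Tfrc (adjusted p = 0.0134).

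Each of them contains the single P42 cauda library, whose principal, myoid/fibroblast and macrophage marker sums lie outside the range of the P56 cauda libraries in these 4 sets of cells; their part in these differences was not tested. The Slc40a1 result in macrophages turned its direction without P56 replicate 1; the 31 caput macrophages of P56 replicate 2 held 0 Slc40a1 UMIs, and DESeq2 gave no adjusted p for it. The Tfrc result over all cells was lost with scaling by library totals alone (adjusted p = 0.17) and in epithelial and unnamed cells only (adjusted p = 0.086). In the same analysis the Slc40a1 result over all cells turned its direction and lost its call, from -1.577 to 0.1138 on the log2 scale. The Tfrc result in principal cells was lost with scaling by totals (adjusted p = 0.12), and the Lcn2 result in basal cells at the finer clustering (log2 0.19, adjusted p = 0.11). The principal cells of the P42 cauda held 1 Tfrc UMI. The 4 Trf results, and the Lcn2 results over all cells and in macrophages, kept their call under every alternative that allowed a test. Each of those alternatives kept the P42 cauda library, so they cannot show how far a result rests on it. For Trf in principal cells that library gave 33 cells and the few UMIs named above.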

How the results depend on the processing

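Between segments, 5 genes over all cells became 3 without the replicate block and 0 to 6 when 1 pool was left out, and 6 in principal cells stayed 6 without the replicate block and became 3 to 7 when 1 pool was left out; the blocked values are those of the report. At P56 against P42 in the cauda, 4 over all cells became 2 in epithelial and unnamed cells only (chosen after seeing the data), and 1 in principal cells became 2 both with TMM factors of 1 and with no filter on low counts. In the corpus, 1 over all cells became 3, 0 in basal cells became 2 and 0 in macrophages became 1 with TMM factors of 1, and 3 in cauda macrophages became 5. The direction of a called difference turned in 2 cases, both for Slc40a1 in the age difference of cauda minus caput: to 0.1138 over all cells in epithelial and unnamed cells only, and to 2.358 in macrophages without P56 replicate 1 (-4.611 without P56 replicate 2). No paired analysis was possible for the ages within a segment because the pools are nested in age. Their comparison between segments was run again with the replicate block (pool as block, chosen after seeing the data): the 11 calls held, Lcn2 in principal cells was gained (-0.77, adjusted p = 0.016) (also in 3 alternatives without the block), and calls over all genes went from 3057 to 5009 in all cells and 423 to 904 in basal cells. Leaving out a P56 pool there leaves 1 library per age and segment, so those are values with no test. The sperm segments could not be fitted without P42 replicate 1. Of 1885 alternative values for 191 differences, 1690 kept direction and side of the threshold (or, with no test, moved by less than the SE), 55 lost and 47 gained a call, and, counted over all of them, 83 lay on the other side of 0, 32 of them with TMM factors of 1. Other than the Slc40a1 pair, those with a test were uncalled in both analyses. They follow as log2 values, P56 minus P42 for ages. With TMM factors of 1 came Ftl1 -0.34 (caput ages, all cells), Trf -0.091 (caput ages, basal), Trf -0.16 (caput ages, macrophages), Lcn2 -0.15 and Ftl1 -0.27 (caput ages, principal), Tfrc -0.026, Fth1 -0.67 and Slc11a2 -0.51 (cauda ages, all cells), Fth1 -0.38 and Ftl1 -0.80 (cauda ages, basal), Tfrc -0.46 and Slc11a2 -0.47 (cauda ages, macrophages), Fth1 -0.91 (cauda ages, principal), Tfrc -0.075, Fth1 -0.63, Ftl1 -0.35, Slc40a1 -0.28 and Slc11a2 -0.14 (corpus ages, all cells), Trf -0.45, Fth1 -0.45 and Slc11a2 -0.35 (corpus ages, basal), Slc40a1 -0.12 (corpus ages, macrophages), Tfrc -0.052, Fth1 -0.48, Ftl1 -0.41 and Slc11a2 -0.31 (corpus ages, principal), Fth1 -0.088 and Slc11a2 -0.14 (cauda minus caput ages, all cells), Slc22a17 -0.22 and Ftl1 -0.43 (cauda minus caput ages, basal), Fth1 -0.14 (cauda minus caput ages, macrophages), Fth1 -0.48 (cauda minus caput ages, principal). In DESeq2 came Slc11a2 0.057 (caput ages, all cells), Ftl1 0.0198 (caput ages, macrophages), Ftl1 -0.046 and Slc40a1 -0.27 (cauda ages, basal), Slc40a1 -0.43 (cauda ages, principal), Slc40a1 -0.12 (cauda minus caput ages, principal). In cells with at least 1000 genes came Slc11a2 0.0017 (caput ages, all cells), Slc22a17 0.77 (cauda ages, basal), Lcn2 0.055 (cauda ages, principal). At clustering resolution 2 came Trf -0.17 (caput ages, macrophages), Trf -0.12 (corpus ages, basal), Slc22a17 -0.11 (cauda minus caput ages, basal), Fth1 -0.073 (caput minus corpus, macrophages). In epithelial and unnamed cells came Ftl1 0.46 (cauda ages, all cells), Ftl1 0.42 (cauda minus caput ages, all cells). Without mitochondrial genes came Trf -0.032 (caput ages, macrophages). With no filter came Trf -0.062 (caput ages, macrophages), Fth1 -0.016 (corpus ages, all cells). Without the replicate block came Trf -0.78 (caput minus cauda, all cells). Without P56 replicate 1 came Trf -0.13 (caput minus cauda, endothelial). Without P56 replicate 2 came Trf -0.26 (caput minus cauda, all cells, with 1.84 without P42 replicate 1), Trf -0.18 (caput minus cauda, endothelial). Without the highest Scrublet scores came Slc11a2 0.016 (caput ages, all cells), Ftl1 0.0039 (corpus ages, basal). DESeq2 gave no adjusted p for 18 more. Across all genes, segment calls over all cells went from 4829 to 615 and 1223 without P56 replicate 1 and replicate 2 and 7435 without P42 replicate 1, and in principal cells from 6063 to 2707 and 3761 without P56 replicate 1 and replicate 2. With TMM factors of 1, age calls went from 746 to 1546 (caput, all cells), 205 to 372 (caput, principal), 2262 to 3916 (corpus, all cells), 1201 to 2257 (corpus, principal) and 1607 to 910 (cauda, principal), and calls of a different age effect in principal cells from 1215 to 588. With no filter they went to 1861, 687 and 1948 (caput, all cells and principal; corpus, principal) and 2428 (age effect, principal), in epithelial and unnamed cells to 265, 963, 3509 and 1383 from 746, 2262, 6860 and 3057 (caput, corpus, cauda, age effect), and in DESeq2 from 205 to 136 (caput, principal). With TMM factors of 1 the share of calls higher at P56 went from 25.7% to 7.57%, 26.3% to 2.55%, 50.2% to 18.3%, 46.7% to 6.11% and 72.9% to 10.4% (caput and corpus, all cells; caput, corpus and cauda, principal), and that of segment calls higher in the cauda than the caput from 45.0% to 34.7% (all cells). DESeq2 gave 45.9% in the caput over all cells, 64.7% in caput and 38.5% in cauda principal cells. Depth limits Slc40a1 and Slc22a17 (1013 and 1998 UMIs in all).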

Other observations

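The 6071 cells in clusters that could not be named were not part of any population. In those of the P42 cauda (1840 cells, 1 library) Lcn2 was at 219 CPM, Trf at 93.5, Fth1 at 2609, Ftl1 at 186, Tfrc at 45.6, Slc22a17 at 10.7, Slc11a2 at 7.87 and Slc40a1 at 2.22. In those of the P42 corpus (1635 cells) Lcn2 was at 241 and Tfrc at 80.0. The named principal cells of the same libraries held Tfrc at 14.3 (1 UMI) and 54.7.

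Clusters of principal cells, built without Lcn2 and the other iron genes, ranged in Lcn2 from 89.6 to 10240 CPM, and a cluster of 1904 cells lay between at 2339. The 196 ciliated cells, which entered the sums over all cells but no comparison of their own, held 5415 Lcn2 UMIs, a level of 4336 CPM. These are values with no test.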
